A study of Mus musculus with 16 samples.

Results

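A set of 9 long non-coding RNAs named Platr, for pluripotency-associated transcript, was followed through the newly made RNA of mouse embryonic stem cells with mutations in subunits of the SAGA and ATAC coactivator complexes. The 9 genes, Platr3, Platr4, Platr10, Platr14, Platr16, Platr20, Platr22, Platr26 and Platr27, were taken by symbol from the 3 deposited count tables, out of 29 rows whose symbol starts with Platr and 32826 genes in all. They were chosen by their measured counts, as Platr rows with counts in the libraries, so that they are expressed in these cells is not a finding. Counts alone did not separate them from the other 20 Platr rows: Platr27, with the lowest median among the 9, had a median of 54 counts over the 14 libraries of newly made RNA, whereas Platr28, which was not chosen, had a median of 2569.5 counts.

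Platr RNAs were defined in mouse embryonic stem cells as non-coding transcripts whose level drops when the cells leave pluripotency, the state in which a cell can still form every tissue of the embryo. Platr4 has been linked in mouse cells to the Tead4 arm of the Hippo pathway, and Platr10 and Platr22 to the upkeep of the pluripotent state. SAGA and ATAC are large complexes that acetylate histones at promoters and enhancers and aid transcription by RNA polymerase II. Tada3 is a subunit of their common acetyltransferase module, Yeats2 and Zzz3 are subunits of ATAC, and Supt7l is a structural subunit of the SAGA core.

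The samples were E14 cells, an established mouse embryonic stem cell line grown with serum, leukaemia inhibitory factor at 1500 U/ml, the GSK3 inhibitor CHIR99021 at 3 µM and the MEK inhibitor PD0325901 at 1 µM. The mutants, 2 clones of each, were AID-Tada3, AID-Yeats2 and AID-Zzz3, which carry a degron tag, and Supt7l-/-, and each was set against WT cells of its own sequencing project. AID marks a protein with an auxin-inducible degron tag, through which auxin and the plant receptor Tir1 bring about its degradation. Every group, WT included, was given auxin for 24 h, and newly made RNA was labelled with 4-thiouridine (4sU) for 15 min and purified. The WT pair of each project held 1 library of plain WT cells and 1 of WT cells overexpressing Tir1 and BirA, so that the spread within a WT pair includes the difference between these lines. AID-Tada3 was sequenced in project 1 with its WT pair and with total RNA of both WT lines, AID-Yeats2 and Supt7l-/- in project 2 with 1 shared WT pair, and AID-Zzz3 in project 3. The labels name clones and lines but no separate cultures of 1 clone, so the p-values below measure the spread between clones of a mutant and between the WT lines, with n = 2 libraries per group throughout.

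The start regions of 4 of these genes are shown. The RNAs of Platr14, Platr10 and Platr22 were each called in a mutant by edgeR, though DESeq2 did not call Platr10 or Platr22 there. Platr20 is shown because a second gene starts beside it. Platr3 was also called in a mutant, but its start region is not shown. Each runs from 250 bases before to 50 bases after the RefSeq start (build GRCm38.p6, the same assembly as the mm10 build of the counts), on the strand of the gene, with searched motifs in capitals. Platr14 lies at chr2:104559209-104559508 on the plus strand, Platr10 at chr3:75655682-75655981 on the minus strand, Platr22 at chr1:136695961-136696260 on the plus strand and Platr20 at chr11:51220369-51220668 on the minus strand.
Platr14: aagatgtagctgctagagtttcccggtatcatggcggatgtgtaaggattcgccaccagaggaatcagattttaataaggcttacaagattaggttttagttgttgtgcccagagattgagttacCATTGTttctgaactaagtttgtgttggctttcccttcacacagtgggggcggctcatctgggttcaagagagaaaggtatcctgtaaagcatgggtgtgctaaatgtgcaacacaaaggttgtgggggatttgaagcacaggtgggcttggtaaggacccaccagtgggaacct
Platr10: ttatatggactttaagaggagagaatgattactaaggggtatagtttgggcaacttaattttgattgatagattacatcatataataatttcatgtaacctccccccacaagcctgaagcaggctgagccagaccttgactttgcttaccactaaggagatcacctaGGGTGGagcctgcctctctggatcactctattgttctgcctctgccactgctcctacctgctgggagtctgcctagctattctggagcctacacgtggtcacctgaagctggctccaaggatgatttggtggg
Platr22: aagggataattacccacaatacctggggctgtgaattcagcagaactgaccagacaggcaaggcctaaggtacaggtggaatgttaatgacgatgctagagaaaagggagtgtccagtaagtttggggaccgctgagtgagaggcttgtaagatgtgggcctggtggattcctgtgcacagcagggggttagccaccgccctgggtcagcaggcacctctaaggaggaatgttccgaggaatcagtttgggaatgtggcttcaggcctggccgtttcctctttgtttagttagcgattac
Platr20: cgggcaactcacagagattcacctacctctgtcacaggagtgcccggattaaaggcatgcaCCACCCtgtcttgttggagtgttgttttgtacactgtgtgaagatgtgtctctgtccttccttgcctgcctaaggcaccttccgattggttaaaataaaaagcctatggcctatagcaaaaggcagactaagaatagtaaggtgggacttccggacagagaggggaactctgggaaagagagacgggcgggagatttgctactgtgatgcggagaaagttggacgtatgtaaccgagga
RefSeq held such a window for 6 of the 9 genes, namely these 4, Platr3 and Platr26. The RefSeq start equalled the start of the counted gene model except in Platr14, where it lay 296 bases inside the model at the start of one of its transcripts, and in Platr3, where it lay 2384 bases before the counted model. On both strands, 5 motifs were searched, none of which contains another: the octamer ATGCAAAT, the Sox element CATTGT, the Esrrb element AAGGTCA, the Klf element CCACCC and the TATA box TATAAA. Platr14 held CATTGT from base -125 counted from its start, a word present in 12.6% of 32851 RefSeq windows of this length. Platr10 held CCACCC on the opposite strand at -83 and Platr20 held it on the same strand at -189, and 31.5% of all windows held that word. The octamer, the Esrrb element and the TATA box, found in 1.74%, 4.72% and 13.6% of all windows, were in none of the 6 windows, and Platr22, Platr3 and Platr26 held none of the 5 words.

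The 14 libraries of 4sU RNA held between 8268061 and 15994518 reads counted on mouse genes and the 2 of total RNA held 4903998 and 6378707. All 9 RNAs passed the filter on low counts in every comparison, Platr16 with 4545 to 10253 counts in a 4sU library, Platr27 with 36 to 127 and Platr26 with 29 to 113. The targeted genes were checked first. Tada3 RNA stood at 12.2 and 10.5 CPM (reads scaled to the size of the library) in the AID-Tada3 clones, against 31.3 CPM in plain WT and 23.9 CPM in Tir1/BirA WT. Yeats2 RNA had 109 and 188 CPM in clones 1 and 2 of AID-Yeats2, against 242 and 256 CPM in WT, and Zzz3 RNA had 288 and 300 CPM in clones 1 and 2 of AID-Zzz3, against 430 and 448 CPM in WT. Supt7l RNA had 8.87 and 14.1 CPM in clones 1 and 2 of Supt7l-/-, against 13.9 and 14.3 CPM in WT; a count over the whole gene does not show a small deletion, and loss of a degron-tagged protein leaves no trace in a count, so these values do not check the mutants at the protein level. Among 24 rows of naive and core pluripotency factors none was at 0 in any library, and their summed level ranged from 4762 to 5935 CPM in the mutant libraries and from 5069 to 5693 CPM in the WT 4sU libraries on the scale of the mutant comparisons. In Supt7l-/- the sum stood at 4922 and 4762 CPM, below the 5235 and 5438 CPM of its WT pair. In AID-Yeats2 it lay above the same pair, at 5655 and 5563 CPM, and it overlapped with WT in AID-Tada3 and AID-Zzz3. Markers of trophectoderm summed to 28.6 to 38.0 CPM in the 4sU libraries. Their sum lay above WT in both clones of AID-Tada3, at 37.4 and 34.8 CPM against 30.4 and 28.75 CPM. It also did in Supt7l-/-, at 38.0 and 35.9 CPM against 32.5 and 30.1 CPM, and it overlapped with WT in AID-Yeats2 and AID-Zzz3. Markers of 2-cell-like cells were low but differed between groups: their sum was 2.69 and 2.34 CPM in AID-Yeats2 and 4.78 and 5.16 CPM in Supt7l-/-, against 0.966 and 1.496 CPM in their WT pair, with 0 or 1 of 7 rows at 0 in the mutants and 4 and 2 in WT. AID-Zzz3 had 2.04 and 1.76 CPM, against 0.768 and 0.467 CPM in WT, with 0 and 1 of 6 rows at 0, against 1 and 4 in WT, while AID-Tada3 overlapped with its WT pair, at 0.536 and 0.428 CPM against 0.378 and 0.548 CPM. The sums of 2-cell-like markers thus lay above WT in AID-Yeats2, Supt7l-/- and AID-Zzz3, and their part in the values of the 9 RNAs was not tested.

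Levels per kb of the median transcript length of each gene gave an order of abundance. In WT 4sU RNA of project 1, Platr16 stood far above the rest at 1282 ± 174 CPM per kb of transcript (SD, n = 2), with 1405 and 1159 CPM per kb in plain and Tir1/BirA cells. Platr3 followed at 115 ± 18.2 and Platr14 at 100.2 ± 6.97 CPM per kb, and their libraries overlapped. Platr20 at 66.2 ± 15.6 and Platr10 at 62.6 ± 9.05 CPM per kb did not differ beyond their spread either. Platr4 stood at 23.5 ± 0.196 CPM per kb, above Platr22 at 13.7 ± 2.72 and Platr27 at 12.6 ± 0.958 CPM per kb, whose libraries overlapped. On these lengths Platr26 was lowest in project 1 at 10.1 ± 1.44 CPM per kb, with both libraries just below those of Platr27. In the WT pairs of projects 2 and 3 the order of these means was reversed. Platr27 stood at 8.80 and 7.51 CPM per kb there, and Platr26 at 9.37 and 14.2 CPM per kb. The annotated exons of Platr4 cover 2553 bases in all, against a median transcript length of 986 bases. The place of Platr4 above Platr22, Platr27 and Platr26 thus depends on the length used. On the same scale Nanog, a core pluripotency factor, stood at 120 and 129 CPM per kb and Pou5f1, which encodes the core factor Oct4, at 104 and 94.9 CPM per kb in these 2 libraries. In project 1 Platr3 and Platr14 thus stood within the range of these 2 factors per kb, taken on the median transcript length of each gene in the deposited tables. The other WT pairs differed. In project 2 Platr3 stood at 153 and 130 CPM per kb and Platr14 at 133 and 104, against 89.6 and 112 for Nanog. In project 3 Platr3 stood at 133 and 158 CPM per kb and Platr14 at 128 and 111, against 95.9 and 97.2 for Nanog. Pou5f1 lay below Nanog in both pairs. Platr14 has 6 transcripts with a median length of 629.5 bases and 1619 distinct words of 50 bases, so its level per kb also depends on the length used.

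**Figure D1:**
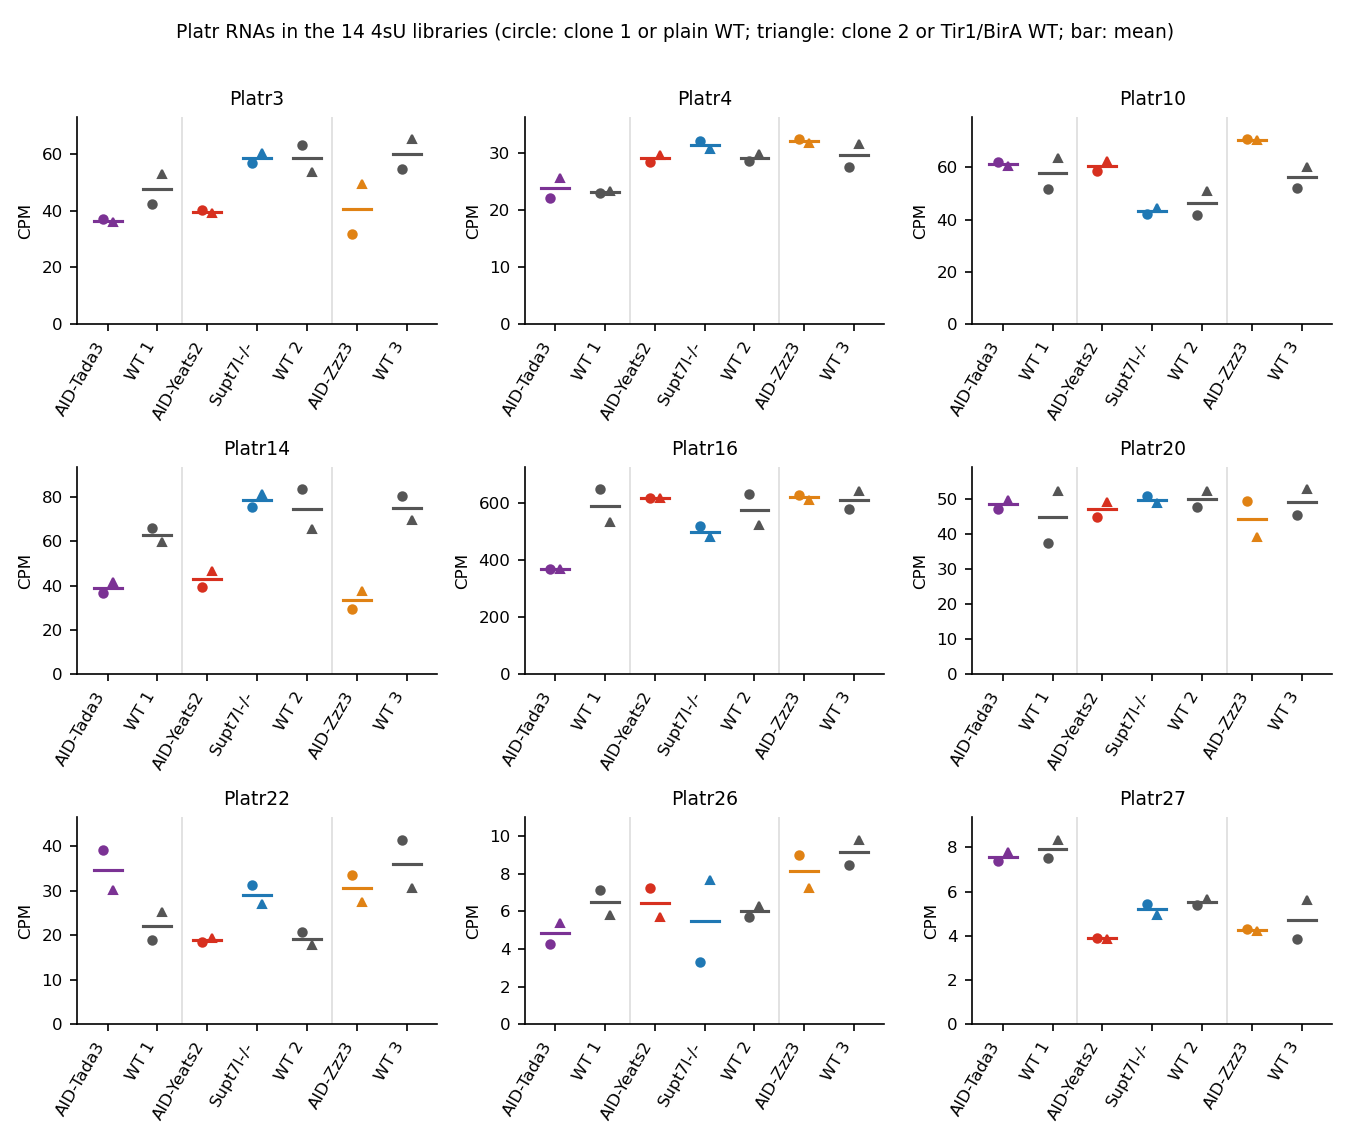
Level in CPM (linear axis) of each Platr RNA in the 14 libraries of 4sU RNA, by group; points are libraries (circles for clone 1 or plain WT, triangles for clone 2 or Tir1/BirA WT), bars are means, and grey lines separate the 3 projects. In Platr14 both clones of AID-Tada3, AID-Yeats2 and AID-Zzz3 sit between 29.6 and 46.5 CPM and every WT library at 59.97 CPM or above, with the Supt7l-/- clones at 75.8 and 81.4 CPM.

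Platr14 showed the largest fold change among the 9 in any mutant. In AID-Zzz3 it stood at 29.6 CPM in clone 1 and 37.5 CPM in clone 2, against 80.7 CPM in plain WT and 69.9 CPM in Tir1/BirA WT. The mutant mean was 44.6% of the WT mean, and the groups did not overlap. The log2 fold change was -1.16 ± 0.146 (SE) with an adjusted p of 0.0195 by edgeR's quasi-likelihood test, with Benjamini-Hochberg adjustment over all genes. Platr14 was the only one of the 9 called in AID-Zzz3, as lower; 0.303% of 14529 genes were called lower there and 0.681% higher. Leaving out AID-Zzz3 clone 1 ended the call, with a log2 fold change of -1.01 and an adjusted p of 0.1004; the lone clone is then assumed to vary like the WT pair.

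In AID-Yeats2, the other ATAC mutant, Platr14 stood at 39.2 CPM in clone 1 and 46.5 CPM in clone 2, against 83.5 CPM in plain WT and 65.5 CPM in Tir1/BirA WT. That is 57.5% of the WT mean, a log2 fold change of -0.80 ± 0.122 with an adjusted p of 0.00191, and the groups did not overlap. Under every alternative run, leaving out each library included, Platr14 stayed lower in AID-Yeats2 with an adjusted p of at most 0.0458. In bulk RNA, fewer cells making an RNA and less RNA per cell cannot be told apart, here and in all that follows.

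AID-Tada3, a mutant of the module shared by both complexes, had Platr14 at 36.7 CPM in clone 1 and 41.6 CPM in clone 2, against 66.2 CPM in plain WT and 59.97 CPM in Tir1/BirA WT. Here too no mutant library reached a WT library, and the mutant mean was 62.1% of the WT mean. With a log2 fold change of -0.69 ± 0.106 the adjusted p was 0.113, so it was not called by edgeR, in a comparison in which only 0.0331% of 15099 genes were called lower and 0% higher. DESeq2 called it, with an adjusted p of 0.0055. In Supt7l-/-, Platr14 stood at 75.8 CPM in clone 1 and 81.4 CPM in clone 2, against the same WT libraries at 83.5 and 65.5 CPM as AID-Yeats2. The Supt7l-/- clones lay between the 2 WT libraries, with a log2 fold change of 0.08 ± 0.118 and an adjusted p of 0.794.

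The difference between these effects was tested in a joint fit of the 14 libraries of 4sU RNA, in which each mutant is set against the WT of its own project. The AID-Zzz3 effect on Platr14 minus the Supt7l-/- effect was -1.24 ± 0.196 with an adjusted p of 0.0105, the AID-Zzz3 effect being the lower. Between AID-Yeats2 and Supt7l-/-, which share their WT libraries, the difference was -0.88 ± 0.14 with an adjusted p of 0.00165. The AID mutants carry a degron tag and Supt7l-/- is a knockout. The mutated subunit and the tagged background therefore cannot be told apart, here and in all later differences from Supt7l-/-. The AID-Tada3 effect was not distinguished from any of the others by this test: the Supt7l-/- effect minus the AID-Tada3 effect was 0.76 ± 0.192 with an adjusted p of 0.202. AID-Yeats2 minus AID-Zzz3 gave 0.36 ± 0.198, with an adjusted p of 1, which does not show that the 2 ATAC mutants act alike. Of all 15426 genes, 10.3% were called in AID-Yeats2 minus Supt7l-/-, 1.24% in AID-Zzz3 minus Supt7l-/-, 0.0194% in Supt7l-/- minus AID-Tada3 and 0% in AID-Yeats2 minus AID-Zzz3.

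Platr3 was called lower in AID-Yeats2. It stood at 40.1 CPM in clone 1 and 39.1 CPM in clone 2, against 63.2 CPM in plain WT and 53.6 CPM in Tir1/BirA WT. Both clones lay below both WT libraries, at 67.7% of the WT mean, with a log2 fold change of -0.56 ± 0.103 and an adjusted p of 0.0041. Leaving out either AID-Yeats2 clone took the adjusted p to 0.0613 and 0.063, and the joint fit of the 14 libraries to 0.09999. In AID-Zzz3, Platr3 stood at 31.6 CPM in clone 1 and 49.2 CPM in clone 2, against 54.7 and 65.1 CPM in WT, with clone 1 well under clone 2 and both below WT. Its log2 fold change there was also -0.56, with an SE of 0.205, and was not called, with an adjusted p of 0.314.

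In AID-Tada3, Platr3 stood at 37.0 CPM in clone 1 and 35.9 CPM in clone 2, against 42.2 CPM in plain WT and 52.9 CPM in Tir1/BirA WT. The groups did not overlap, but the log2 fold change of -0.38 ± 0.123 had an adjusted p of 0.503. In Supt7l-/-, Platr3 stood at 56.8 and 60.4 CPM, against 63.2 and 53.6 CPM in WT, between the WT libraries and with a log2 fold change of 0.00312 ± 0.101. The difference between the AID-Yeats2 and Supt7l-/- effects on Platr3 was -0.57 ± 0.175, with an adjusted p of 0.0561 by edgeR and 0.023 by DESeq2. Across the 14 libraries, each taken relative to the WT mean of its project, Platr3 and Platr14 had a Pearson correlation of 0.873, the highest between any 2 of the 9 RNAs. These points share WT means, clones and depth, so the value only describes these libraries.

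Platr10 was called higher in AID-Yeats2. It stood at 58.8 CPM in clone 1 and 62.3 CPM in clone 2, against 41.7 CPM in plain WT and 51.1 CPM in Tir1/BirA WT. Both clones lay above both WT libraries, at 130.6% of the WT mean, with a log2 fold change of 0.39 ± 0.107 and an adjusted p of 0.0431. The call was lost with DESeq2, with the joint fit and when either clone or the plain WT library was left out; without plain WT the log2 fold change was 0.24 with an adjusted p of 0.132. Scaling on spike-in RNA turned its direction, to -0.11. In AID-Zzz3, Platr10 stood at 70.7 CPM in clone 1 and 70.4 CPM in clone 2, against 52.2 and 60.1 CPM in WT, again with no overlap but not called, with a log2 fold change of 0.33 ± 0.115 and an adjusted p of 0.28.

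Platr10 was not called in the remaining mutants. It stood at 61.9 and 60.7 CPM in AID-Tada3, against 51.8 and 63.6 CPM in WT, and at 42.2 and 44.4 CPM in Supt7l-/-, against 41.7 and 51.1 CPM in WT, overlapping in both cases. The difference between the AID-Yeats2 and Supt7l-/- effects was 0.48 ± 0.119 with an adjusted p of 0.0188. In the same joint fit the AID-Zzz3 effect minus the Supt7l-/- effect was 0.42 ± 0.167, with an adjusted p of 0.244. Relative to the WT of each project, Platr10 and Platr14 had a Pearson correlation of -0.829 over the 14 libraries.

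Counting the 9 RNAs, AID-Yeats2 had 1 called higher and 2 called lower, where 3.92% of 14513 genes were called higher and 3.32% lower. Supt7l-/- had 1 higher and 0 lower, against 1.32% and 2.02% of the same genes. AID-Zzz3 had 0 higher and 1 lower and AID-Tada3 had 0 in either direction. At an unadjusted p under 0.05 by edgeR, AID-Yeats2 had 1 RNA higher and 3 lower and Supt7l-/- had 1 higher and 1 lower. AID-Zzz3 had 1 higher and 2 lower, and AID-Tada3 had 1 higher and 3 lower. The share of all genes under that unadjusted threshold is not given, so unadjusted counts here and below have no background beside them. DESeq2 called 0 RNAs higher in any mutant, with 2 lower in AID-Yeats2, 0 in Supt7l-/-, 1 in AID-Zzz3 and 2 in AID-Tada3. The median log2 fold change of the 9 was -0.06 in AID-Tada3, -0.02 in AID-Yeats2, -0.00886 in Supt7l-/- and -0.15 in AID-Zzz3, where the median of all genes lay between -0.00457 and 0.00294.

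**Figure D2:**
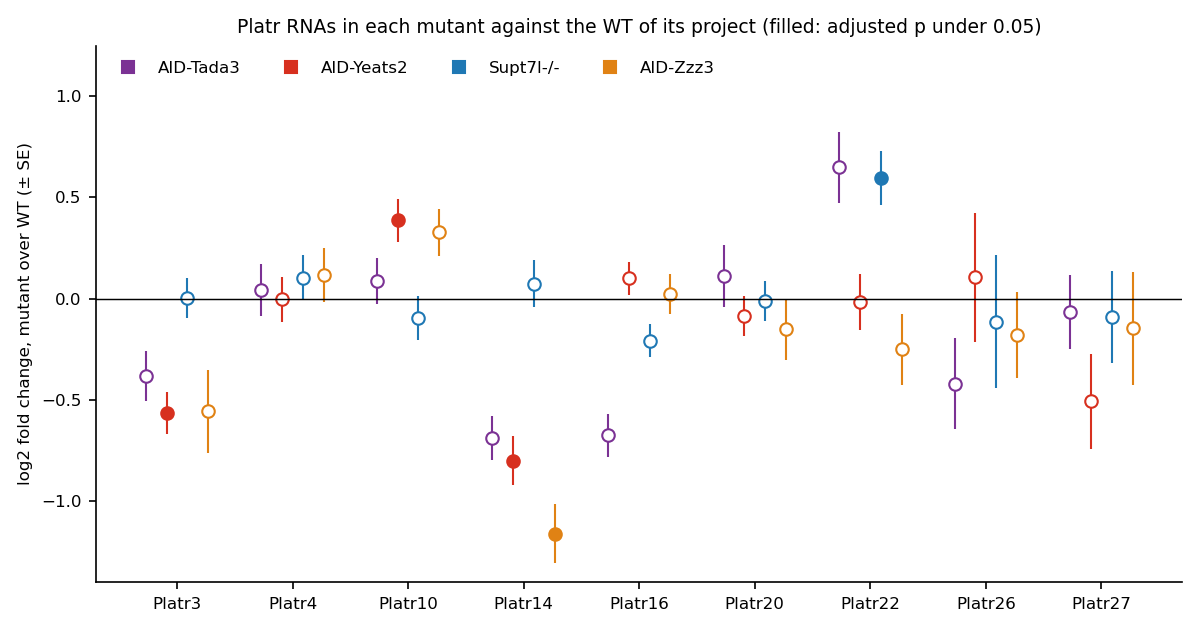
The log2 fold change of each Platr RNA in each mutant over the WT 4sU libraries of its project, with bars of 1 standard error and filled points at an adjusted p under 0.05, scaled on all mouse genes. The 5 filled points are Platr14 in AID-Zzz3 (-1.16) and AID-Yeats2 (-0.80), Platr3 (-0.56) and Platr10 (0.39) in AID-Yeats2, the last of which turns to -0.11 on spike-in scaling, and Platr22 in Supt7l-/- (0.60).

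Platr22 was the RNA called in Supt7l-/-. It stood at 31.3 CPM in clone 1 and 27.0 CPM in clone 2, against 20.7 CPM in plain WT and 17.7 CPM in Tir1/BirA WT. Both clones lay above both WT libraries, at 151.6% of the WT mean, with a log2 fold change of 0.60 ± 0.134 and an adjusted p of 0.025. DESeq2, the joint fit, spike-in scaling and leaving out either clone ended the call, with adjusted p-values of 0.0695, 0.177, 0.538, 0.279 and 0.0935, and a log2 fold change of 0.23 on spike-in scaling. In AID-Tada3, Platr22 stood at 39.1 CPM in clone 1 and 30.1 CPM in clone 2, against 19.0 CPM in plain WT and 25.2 CPM in Tir1/BirA WT, above WT in both clones. That log2 fold change was as large, 0.65 ± 0.175, but was not called, with an adjusted p of 0.466.

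In the ATAC mutants Platr22 overlapped with WT. AID-Yeats2 gave 18.6 and 19.5 CPM, against 20.7 and 17.7 CPM in WT, and AID-Zzz3 gave 33.5 and 27.5 CPM, against 41.5 and 30.7 CPM in WT. The difference between the AID-Yeats2 and Supt7l-/- effects was -0.62 ± 0.192 with an adjusted p of 0.0552 by edgeR and 0.0381 by DESeq2. AID-Zzz3 minus AID-Tada3 gave -0.91 ± 0.253 with an adjusted p of 0.118.

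Platr16, the most abundant of the 9, had lower values in both AID-Tada3 clones than in WT. It had 369.1 CPM in clone 1 and 369.9 CPM in clone 2, against 646 CPM in plain WT and 533 CPM in Tir1/BirA WT, with no overlap and a mean at 62.7% of WT. The log2 fold change was -0.67 ± 0.108 with an adjusted p of 0.13 by edgeR in the 4 libraries of project 1; it was called by DESeq2, with 5.41e-05, and in the joint fit of 14 libraries, with 0.0132. Supt7l-/- had 517 and 480 CPM, against 630 and 521 CPM in WT, just below WT in both clones, with a log2 fold change of -0.21 ± 0.0813 and an adjusted p of 0.192. AID-Yeats2 had 616 and 618 CPM, inside the range of 630 and 521 CPM of its WT pair, and AID-Zzz3 had 628 and 611 CPM, inside the range of 579 and 639 CPM of its own.

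The joint fit tested this contrast between mutants directly. The AID-Yeats2 effect minus the AID-Tada3 effect on Platr16 was 0.77 ± 0.14 with an adjusted p of 0.0111, and the AID-Zzz3 effect minus the AID-Tada3 effect was 0.69 ± 0.14 with an adjusted p of 0.0228. Over all genes 1.43% and 1.04% were called in these 2 differences. Between Supt7l-/- and AID-Tada3 the difference was 0.47 ± 0.14 and was not called, with an adjusted p of 0.309. Platr16 lies at chr4:145410245-145449756 and shares 290 of its 665 exon bases with the pseudogene Gm13230 on the same strand, and 39.3% of the 50-base words in its transcripts also occur in that gene, so the counting could split or drop reads there. Gm13230 itself had a log2 fold change of -0.80 in AID-Tada3 with an adjusted p of 0.178. No other of the 9 shared more than 1.41% of its 50-base words with any other annotated transcripts.

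Platr4, Platr20, Platr26 and Platr27 were not called in any mutant. Platr4 ranged over 22.1 to 32.3 CPM in the 8 mutant libraries and 23.0 to 31.6 CPM in the 6 WT libraries, with log2 fold changes from -0.00362 in AID-Yeats2 to 0.12 in AID-Zzz3. Platr20 ranged over 39.0 to 50.6 CPM in the mutants and 37.2 to 52.6 CPM in WT, and overlapped with WT in every comparison. Platr26 had 3.30 CPM in Supt7l-/- clone 1 and 7.69 CPM in clone 2, against 5.70 and 6.31 CPM in WT, so that 1 clone lay below and 1 above both WT libraries. Platr27 had 3.92 and 3.86 CPM in AID-Yeats2, against 5.41 and 5.66 CPM in WT, with no overlap and a log2 fold change of -0.51 ± 0.235 that was not called, with an adjusted p of 0.229. These clones had 38 counts each.

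Non-overlap of groups was common among all genes, as 2 libraries against 2 allow. In AID-Tada3, 1 RNA (Platr22) lay above WT in both clones and 4 lay below (Platr3, Platr14, Platr16 and Platr26), where 19.3% of all genes lay above and 20.3% below. AID-Yeats2 had 1 above and 3 below, with 25.3% and 25.8% of all genes. In Supt7l-/-, 2 lay above and 1 below, with 24.0% and 24.4% of all genes, and in AID-Zzz3, 2 lay above and 2 below, with 22.8% and 21.9%.

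The scaling of the libraries decided how many of the 9 counted as lower. Spike-in RNA, from Drosophila cells in project 1 and from fission yeast in projects 2 and 3, gives a scale on which a change of all genes shows. On it the median log2 fold change of all genes was -0.16 in AID-Tada3, -0.50 in AID-Yeats2, and -0.36 in both Supt7l-/- and AID-Zzz3. Against this shift Platr14 still stood out in 3 mutants, with -0.85 in AID-Tada3, -1.28 in AID-Yeats2 and -1.53 in AID-Zzz3, all called, and with -0.28 in Supt7l-/-, not called and short of the median of all genes. Platr10, at -0.06, -0.11 and -0.03 in AID-Tada3, AID-Yeats2 and AID-Zzz3, was called in none. AID-Zzz3 then had 4 of the 9 called lower (Platr3, Platr14, Platr16 and Platr20), AID-Yeats2 had 3 (Platr3, Platr14 and Platr27), AID-Tada3 had 2 (Platr14 and Platr16) and Supt7l-/- had 0, and none was called higher in any mutant. Of all genes 26 were then called higher and 224 lower in AID-Tada3, 59 and 3411 in AID-Yeats2, 32 and 646 in Supt7l-/- and 129 and 3584 in AID-Zzz3, where scaling on mouse genes gave 0 and 5, 569 and 482, 191 and 293, and 99 and 44. The value of Platr16 in AID-Zzz3 on this scale, -0.34 with an adjusted p of 0.0311, was no larger than the shift of all genes, and on the main scale its log2 fold change was 0.02.

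**Figure D3:**
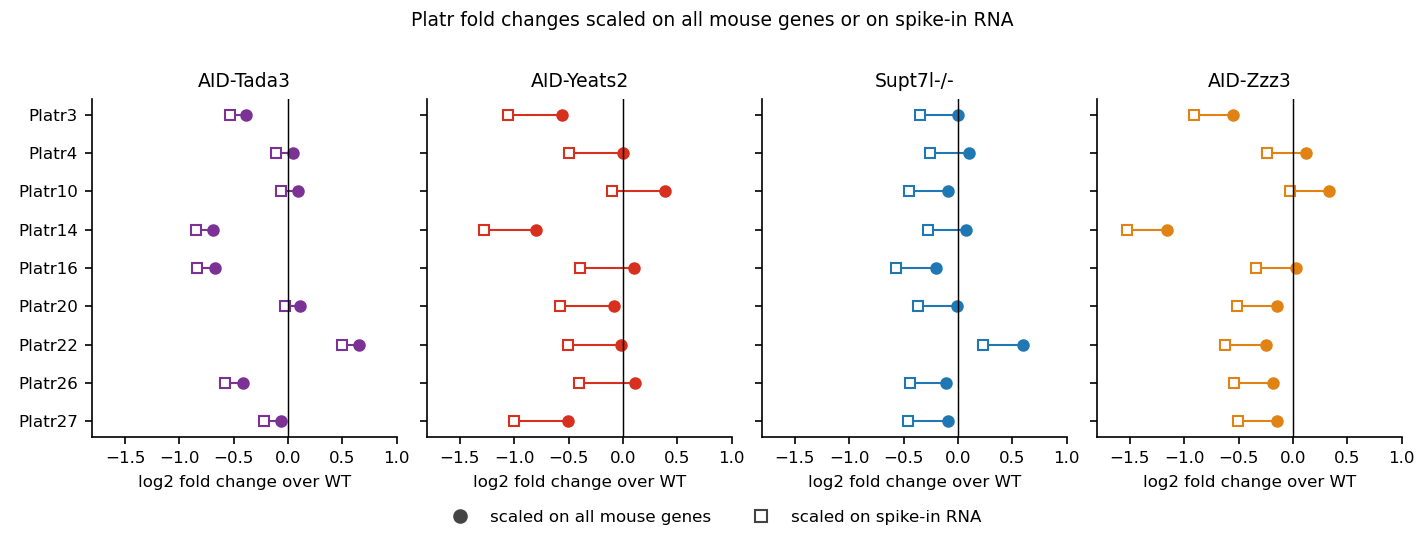
The log2 fold change of each Platr RNA over WT in each mutant, scaled on all mouse genes (filled circles) and on spike-in RNA (open squares), joined by a line. Every square lies left of its circle, and in AID-Yeats2 Platr10 is at 0.39 on the first scale and at -0.11 on spike-in RNA, Platr14 at -0.80 and at -1.28.

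The authors' deposited table gives fold changes of its own. For Platr14 it lists log2 fold changes of -0.59 in AID-Tada3, -1.12 in AID-Yeats2, -0.24 in Supt7l-/- and -1.32 in AID-Zzz3, with adjusted p-values of 0.616, 1.74e-05, 0.337 and 1.07e-10. For Platr3 the authors' deposited table lists -0.94 in AID-Yeats2 and -0.76 in AID-Zzz3, with adjusted p-values of 0.000199 and 0.00325. For Platr10 the deposited value in AID-Yeats2 in the authors' deposited table is -0.09 with an adjusted p of 0.679, of opposite sign to the value on the scale of all mouse genes. For Platr22 the authors' deposited table lists 0.20 in Supt7l-/- with an adjusted p of 0.449, and -0.50 in AID-Zzz3 with an adjusted p of 0.0467. For Platr16 the authors' deposited table lists -0.57 in AID-Tada3 and -0.53 in Supt7l-/-, with adjusted p-values of 0.141 and 0.0351. For Platr20 the authors' deposited table lists -0.51 in AID-Yeats2 and -0.45 in AID-Zzz3, with adjusted p-values of 0.0268 and 0.0298.

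In WT cells of project 1, 4sU RNA was set against total RNA of the same lines. Labelled RNA holds what was transcribed in the 15 min pulse, while total RNA holds what has accumulated, as general background, stable RNAs are thus scarcer in the labelled fraction. Of the 9, 4 were called higher in 4sU RNA and 1 lower, where 30.4% of 14494 genes were called higher and 33.0% lower. Their median log2 fold change was 0.74, against 0.05 for all genes. Per the labels' protocols, total RNA was depleted of ribosomal RNA while 4sU RNA was not, and the 2 were fragmented differently, so the preparation differs along with the kind of RNA, and the 2 cannot be told apart.

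Platr22, Platr16 and Platr20 were the 3 furthest above total RNA, with 4sU means at 323.8%, 320.6% and 307.4% of the total RNA means. Platr22 stood at 19.4 CPM in 4sU RNA of plain WT and 26.2 CPM in that of Tir1/BirA WT, against 7.78 and 6.31 CPM in total RNA, with a log2 fold change of 1.70 ± 0.25 and an adjusted p of 0.00077. Platr16 stood at 662 and 554 CPM in 4sU RNA, against 230.3 and 149 CPM in total RNA, with a log2 fold change of 1.68 ± 0.226 and an adjusted p of 0.000491. For Platr20 the values were 38.2 and 54.2 CPM in 4sU RNA, against 14.2 and 15.9 CPM in total RNA, with a log2 fold change of 1.62 ± 0.221 and an adjusted p of 0.000532. All 3 calls held under every alternative run, including the replicate block by WT line.

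Platr4 was called higher as well, with 23.6 and 24.2 CPM in 4sU RNA, against 14.4 and 16.9 CPM in total RNA, a log2 fold change of 0.60 ± 0.186 and an adjusted p of 0.0235; DESeq2 and leaving out 3 of the 4 libraries in turn ended that call. Platr3 and Platr26 lay above total RNA without a call, at 0.74 ± 0.305 with an adjusted p of 0.0667 and at 0.79 ± 0.307 with an adjusted p of 0.0562. With the WT line as a replicate block both were called, with adjusted p-values of 1.545e-06 and 0.0176, which makes 6 RNAs higher. Platr3 in total RNA differed between the lines, with 38.8 CPM in Tir1/BirA WT and 19.45 CPM in plain WT, and without the plain total RNA library its log2 fold change was 0.27.

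Platr14 was the 1 called lower in 4sU RNA, with 67.8 and 62.4 CPM, against 88.1 and 84.1 CPM in total RNA, a log2 fold change of -0.40 ± 0.141 and an adjusted p of 0.0381. That call was lost with DESeq2, without a filter on low counts and without either 4sU library, with adjusted p-values of 0.0949, 0.117, 0.205 and 0.367. Platr27 at 7.68 and 8.68 CPM in 4sU RNA, against 9.34 and 10.9 CPM in total RNA, and Platr10 at 53.1 and 66.1 CPM, against 57.6 and 76.4 CPM, were not called. In this comparison 6 of the 9 lay above total RNA in both 4sU libraries and 2 lay below, where 41.7% of all genes lay above and 41.1% below. Scaling on spike-in RNA took the median of all genes to 2.29, and all 9 were then called higher, Platr14 at 1.85. On that scale 11703 of all 14494 genes were called higher, so directions here are relative to all mouse genes. Pou5f1, with a log2 fold change of -3.35 and an adjusted p of 1.17e-05, lay far lower in 4sU RNA than any of the 9.

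**Figure D4:**
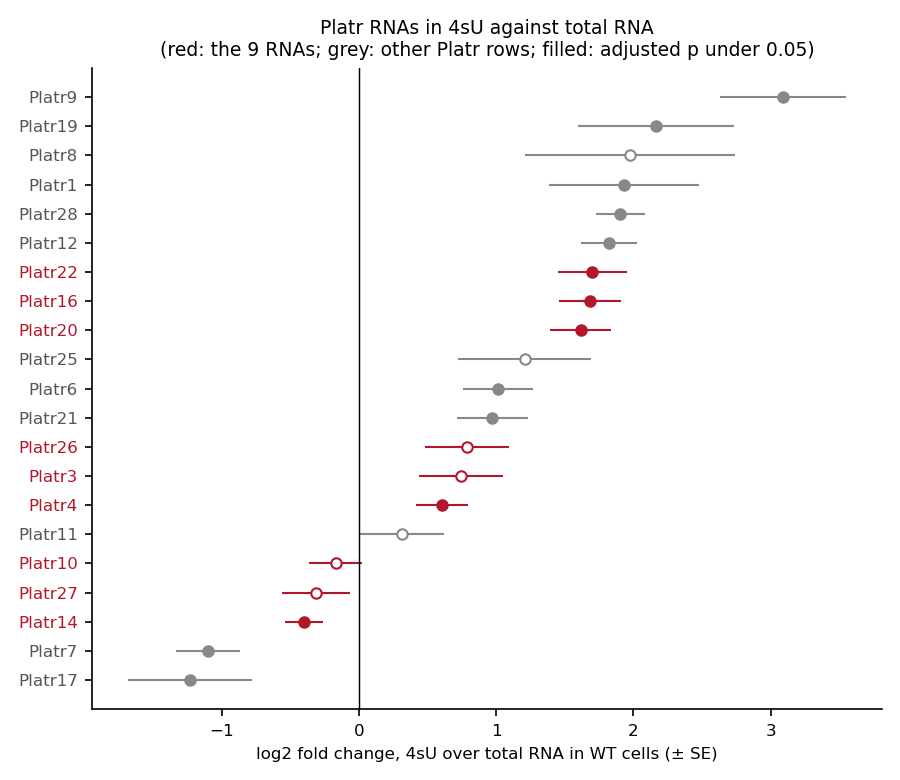
The log2 fold change of each tested Platr RNA in 4sU over total RNA of WT cells in project 1, with bars of 1 standard error, the 9 RNAs in red, the 12 other tested Platr rows in grey and filled points at an adjusted p under 0.05, scaled on all mouse genes. On spike-in scaling all 9 are called higher, as are 11703 of all 14494 genes. Platr22, Platr16 and Platr20 lie between 1.62 and 1.70 and Platr14 at -0.40, inside the range of the other rows, from -1.23 (Platr17) to 3.09 (Platr9).

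The other 20 Platr rows gave a comparison within the family. Between 12 and 14 of them passed the filter in each comparison, and edgeR called 0 of them in AID-Tada3, AID-Yeats2, Supt7l-/- or AID-Zzz3, in either direction. DESeq2 also called 0 in each. Of all genes, edgeR called from 0% in AID-Tada3 to 3.92% in AID-Yeats2 higher, and from 0.0331% to 3.32% lower. At these shares, 0 called among so few rows does not set them apart from other genes. Between the AID-Yeats2 and Supt7l-/- effects, however, 2 of 13 tested rows differed by edgeR, where 10.3% of all 15426 genes did. These were Platr7, by 0.82 with an adjusted p of 0.0108, and Platr28, by -0.32 with an adjusted p of 0.0189. DESeq2 also called 1 higher and 1 lower, so such differences were not limited to the 9. At an unadjusted p under 0.05 the counts were 1 higher and 0 lower in AID-Tada3, 2 and 1 in AID-Yeats2, 0 and 1 in Supt7l-/- and 2 and 1 in AID-Zzz3. In 4sU against total RNA, 7 of 12 tested rows were called higher and 2 lower, with a median log2 fold change of 1.515. Of all 14494 genes, 30.4% were called higher there and 33.0% lower. The 9 and the other rows were not tested against each other.

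Tir1/BirA WT was compared with plain WT over the 3 projects, since every WT pair rests on both. By edgeR and by DESeq2 0 of the 9 were called, where 0.437% of 14181 genes were called higher and 0.804% lower, and at an unadjusted p under 0.05 there were 2 higher and 1 lower. Platr20 and Platr10 lay higher in Tir1/BirA WT, with log2 fold changes of 0.28 ± 0.0966 and 0.26 ± 0.0825 and adjusted p-values of 0.218 and 0.181. Platr14 lay lower, at -0.23 ± 0.081 with an adjusted p of 0.216, and was lower in the Tir1/BirA library than in the plain library in each of the 3 projects. The labels do not say whether the AID lines carry the Tir1/BirA construct of this WT line. The part of the line in the Platr10 value of 0.39 in AID-Yeats2 was not tested, nor was its part in the lower Platr14 values of the AID mutants.

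The genes beside the 9 were listed by position to set each RNA in its neighbourhood. Platr3 (chr2:135648907-135652063) ends 6948 bases before Plcb4, a phospholipase C gene on the same strand, which was called lower in AID-Yeats2 with a log2 fold change of -0.38 and an adjusted p of 0.0217, as Platr3 was. Platr14 (chr2:104559163-104571429) lies 19094 bases before Cstf3, a cleavage factor gene, and 64717 bases from Hipk3, a kinase gene. Neither neighbour was called in AID-Yeats2 or AID-Zzz3, where Cstf3 had log2 fold changes of 0.0067 and 0.0081 and Hipk3 of -0.24 and -0.30. Hipk3 was called higher in Supt7l-/-, with 0.39 and an adjusted p of 0.0317. Platr22 (chr1:136696211-136726142) lies 116429 bases from Nr5a2, a nuclear receptor of the pluripotency network, which was called lower in Supt7l-/- with -0.26 and an adjusted p of 0.025, while Platr22 was higher.

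Platr20 (chr11:51189833-51220418) and Gm12569 start 55 bases apart and run in opposite directions. The start region printed above for Platr20 thus also holds the start of Gm12569, with only part of the 250 bases before that start. Gm12569 was not called in any mutant, with log2 fold changes from -0.13 in AID-Tada3 to 0.32 in AID-Yeats2. Platr10 (chr3:75647446-75655731) lies 3951 bases from Serpini1, whose log2 fold changes of 0.11 in AID-Yeats2 and 0.33 in AID-Zzz3 were not called. Platr4 (chr3:41484024-41493192) overlaps the pseudogene Gm6069 on the opposite strand without sharing exon bases. Platr26 (chr2:71719417-71730966), which lies 14650 bases before the integrin gene Itga6, and Platr27 (chr2:157595583-157597320), which lies between Blcap and Ctnnbl1, had no neighbour called in a mutant.

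For each RNA the protein-coding gene with the most similar course over the 14 libraries of 4sU RNA, relative to the WT of each project, was named from 12384 genes. Platr14 was most like Pdia4, a protein disulfide isomerase of the endoplasmic reticulum (Pearson correlation 0.943), and Platr3 was most like Yod1, a deubiquitinase (0.927). Platr10 followed Gm38392 (0.966), Platr22 followed Ano6, a phospholipid scramblase (0.954), and Platr20 followed Kbtbd2 (0.916). Platr16 was most like Etv1, an ETS transcription factor (0.961), which was called lower in AID-Tada3 with -0.73 and an adjusted p of 0.0295 and in Supt7l-/- with -0.31 and an adjusted p of 0.04155. Platr27 was most like Ccdc127 (0.914), called lower in AID-Yeats2 with -0.56 and an adjusted p of 0.0114. The weakest matches were Piwil1 for Platr26 (0.87) and Ndufc1 for Platr4 (0.856). The highest of 12384 correlations over 14 points is high by construction, and the libraries share depth and WT means.

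Other genes of the pluripotency network gave the setting. Of 10 tested pluripotency-linked non-coding RNAs outside the family, 3 were called lower in AID-Yeats2 and 0 higher: Firre at -0.60, which organises nuclear architecture, Lncenc1 at -0.32, a naive-state RNA, and the microRNA host Mir17hg at -0.40, with adjusted p-values of 0.000591, 0.00514 and 0.0119. The median of the 10 was -0.24 in AID-Yeats2, beside a median of -0.000339 for all genes. In AID-Zzz3 it was -0.294, beside 0.00294 for all genes. It was 0.04 in AID-Tada3 and -0.07 in Supt7l-/-. In AID-Tada3, Supt7l-/- and AID-Zzz3 edgeR called 0 of the 10; at an unadjusted p under 0.05 there were 0, 2 and 2 lower and 0, 1 and 1 higher, and DESeq2 called 0, 1 and 1, all lower. Of 23 tested naive and core factors, Supt7l-/- had 1 called higher, Dppa2 at 0.47, and 3 lower, among them Nr5a2 at -0.26 and Tfcp2l1 at -0.24, while DESeq2 called 0 of them. At an unadjusted p under 0.05 by edgeR, Supt7l-/- had 2 of these factors higher and 8 lower, with a median log2 fold change of -0.16 over the 23. AID-Tada3, AID-Yeats2 and AID-Zzz3 had 0 of these called in either direction by edgeR or DESeq2, with 2, 4 and 0 higher and 0 lower at an unadjusted p under 0.05. Stk3, the kinase Mst2 of the Hippo pathway, was the 1 of 17 Hippo and Tead genes called in AID-Yeats2, at -0.29 with an adjusted p of 0.0151, and Supt7l-/- had Ctgf, a target of that pathway, higher at 0.68 and Tead1 lower at -0.24, where DESeq2 called 1 higher and 0 lower. Platr4 itself was called in neither.

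Genes of states that embryonic stem cells can move into were counted in the same way, since Platr RNAs are lowered on differentiation. The shares of all genes called by edgeR were again 3.92% higher and 3.32% lower in AID-Yeats2, and 1.32% and 2.02% in Supt7l-/-. AID-Yeats2 had 2 of 12 formative and primed genes called higher, the ligand Nodal at 0.43 and the DNA methyltransferase Dnmt3b at 0.39, which DESeq2 did not call, and Supt7l-/- had 1 called lower, the Wnt effector Lef1 at -1.29. Of 9 primitive endoderm markers, Supt7l-/- had Dab2 higher at 0.89, Sparc higher at 0.49 and Lama1 lower at -0.33, where DESeq2 called 1 higher and 1 lower. Of 5 trophectoderm markers, Supt7l-/- had the transcription factor Gata3 higher at 1.29. AID-Tada3 and AID-Zzz3 had 0 called in these lists by edgeR or DESeq2; at an unadjusted p under 0.05, 4, 3 and 1 genes were higher in AID-Tada3 and 1, 4 and 0 in AID-Zzz3, in that order of lists. In AID-Yeats2, 3 primitive endoderm markers and 0 trophectoderm markers were higher at an unadjusted p under 0.05, with 0 called by either tool. Mesoderm, neural and 2-cell-like markers were mostly below the filter: 1 or 2, 3 and at most 1 were tested, with 0 called in any mutant by edgeR or DESeq2 and at most 2 at an unadjusted p under 0.05. Summed primitive endoderm markers stood at 721.2 and 683.9 CPM in AID-Tada3, against 551.8 and 635 CPM in WT, above WT in both clones, with 1 and 2 of 13 rows at 0 in the mutant and 0 in WT. In Supt7l-/- they stood at 535.4 and 491.3 CPM, against 564.3 and 590.9 CPM in WT, below WT in both clones, and they overlapped with WT in AID-Yeats2 and AID-Zzz3. Summed formative and primed genes stood at 366.1 and 336.8 CPM in AID-Tada3, against 304.3 and 316.2 CPM in WT. That sum also lay above WT in both clones of AID-Yeats2, lay below WT in Supt7l-/- and overlapped in AID-Zzz3. Neural markers summed above WT in AID-Tada3 and Supt7l-/- and below WT in AID-Yeats2, and mesoderm markers summed above WT in AID-Tada3 alone. The part of these sums in the Platr values was not tested.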

How the data were processed

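The deposited tables hold 16 libraries in 8 groups of 2 from 3 projects. The authors' raw counts per gene were used, with the deposited median transcript length for values per kb. The authors' deposited log2 fold changes and adjusted p-values were copied only where named as theirs. Per the submitters' processing notes, the tools include HTSeq 0.6.1p1, STAR 2.5.3a, DESeq2 1.16.1, Bowtie2 2.2.8 and cutadapt 1.10, with builds mm10, BDGP6, sacCer3 and ASM294v2; the strand setting of the counting is not given in the sources used here. All per-sample columns of counts matched a sample by name.

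The 9 genes, the gene lists and the tests were chosen with earlier results of these data known. Named genes are the 9, the other Platr rows, their overlapping and nearest tested neighbours, the 3 called genes of smallest p per list and comparison, Pou5f1 and Nanog, and for each of the 9 the protein-coding gene of at least 1 CPM with the highest Pearson correlation. Plcb4, Hipk3 and the other neighbours were thus named by position. The targeted genes were added to check the labels.

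Counts were tested with edgeR 4.0.16 (limma 3.58.1, R 4.3.3) by the robust quasi-likelihood test, with TMM scaling on mouse genes, a minimum count of 10 in its expression filter and Benjamini-Hochberg adjustment over all genes; called means an adjusted p under 0.05, and ± after a log2 fold change is its standard error. Each mutant was fitted with the WT of its project, AID-Yeats2 and Supt7l-/- together, and differences between mutants in all 14 libraries of 4sU RNA. Levels in CPM use these scaled library sizes. Depth was 4903998 to 15994518 mouse counts and 803588 to 4464088 spike-in counts per library. The fits were tested on simulated data first. Alternatives were DESeq2 1.42.0, its size factors, spike-in scaling, no filter, at least 50 counts, the joint fit, each library left out, and the WT line as a replicate block for 4sU against total RNA. That block pairs samples of the same cell line, whose deviations correlated at 0.457. Tables were handled with pandas 2.3.3 and numpy 2.4.6 in Python 3.11.15, and figures drawn with matplotlib 3.10.9.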

Additional observations from a re-analysis of the deposited data

Results flagged for a closer look

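The effects of 2 mutants on the same RNA differed by edgeR's test of the difference in 5 cases, over 9 RNAs and 6 pairs of mutants. Of all 15426 genes, 10.3% were called in AID-Yeats2 minus Supt7l-/- and 1.24% in AID-Zzz3 minus Supt7l-/-. The shares were 1.43% in AID-Yeats2 minus AID-Tada3 and 1.04% in AID-Zzz3 minus AID-Tada3. For Platr14 the AID-Yeats2 effect minus the Supt7l-/- effect was -0.88 on the log2 scale, with an adjusted p of 0.00165, and the AID-Zzz3 effect minus the Supt7l-/- effect was -1.24, with an adjusted p of 0.0105. Platr10 differed between AID-Yeats2 and Supt7l-/- by 0.48, with an adjusted p of 0.0188. For Platr16 the AID-Yeats2 effect minus the AID-Tada3 effect was 0.77, with an adjusted p of 0.0111, and the AID-Zzz3 effect minus the AID-Tada3 effect was 0.69, with an adjusted p of 0.0228. All 5 were also called by DESeq2 and with its size factors.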

How the results depend on the processing

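With 2 libraries a group, calls among the 9 depended on the setting. AID-Tada3, with 0 called, had 1 higher without a filter, 2 lower with DESeq2, spike-in scaling or no filter and 1 lower in the joint fit. The 1 higher in AID-Yeats2 and in Supt7l-/- became 0 with DESeq2, spike-in scaling and the joint fit, and the 2 lower in AID-Yeats2 became 1 in the joint fit. Without a filter Supt7l-/- had 1 lower and AID-Zzz3 had 2 lower; spike-in scaling gave AID-Zzz3 4 lower. For 4sU against total RNA spike-in scaling gave 9 higher, and DESeq2, spike-in scaling and no filter gave 0 lower. Leaving out each library in turn gave 0 to 2 higher and 0 to 3 lower in AID-Tada3, 0 to 1 higher and 1 to 2 lower in AID-Yeats2, 0 to 1 in either direction in Supt7l-/-, and 0 to 1 lower in AID-Zzz3, in 4sU against total RNA and, by project, in Tir1/BirA WT. The cause was not tested.

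The replicate block by WT line called 6 higher and 1 lower in 4sU against total RNA. For AID-Yeats2 minus Supt7l-/- DESeq2 called 3 lower. A replicate block by clone number, chosen after seeing the data, called 2 higher and 3 lower; the clones share only a number, with deviations correlated at 0.0262.

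Directions turned as follows. On spike-in scaling Platr4, Platr10 and Platr20 were at -0.11, -0.0627 and -0.0286 in AID-Tada3; Platr10, Platr16 and Platr26 at -0.11, -0.39 and -0.40 in AID-Yeats2; Platr3, Platr4 and Platr14 at -0.35, -0.26 and -0.28 in Supt7l-/-; Platr4, Platr10 and Platr16 at -0.24, -0.0307 and -0.34 in AID-Zzz3; and Platr10, Platr14 and Platr27 at 2.08, 1.85 and 1.935 in 4sU against total RNA. In AID-Yeats2 Platr4 was at 0.000353 with DESeq2 size factors, 0.000153 with DESeq2 and 0.0255 with at least 50 counts, where Platr22 was at 0.0137. Without a filter Platr3 was at -0.00105 in Supt7l-/- and Platr16 at -0.00689 in AID-Zzz3. DESeq2 put Platr3 at 0.000725 in AID-Yeats2 minus AID-Zzz3.

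Leaving out libraries in AID-Tada3 gave -0.057 to 0.15 for Platr4, -0.0545 to 0.25 for Platr10, -0.11 to 0.39 for Platr20 and -0.14 to 0.0248 for Platr27. In AID-Yeats2 it gave -0.0377 to 0.0308 for Platr4, -0.0266 to 0.24 for Platr16, -0.12 to 0.0981 for Platr22 and -0.0725 to 0.27 for Platr26. In Supt7l-/- it gave -0.11 to 0.13 for Platr3, -0.24 to 0.0593 for Platr10, -0.0848 to 0.26 for Platr14, -0.0768 to 0.0604 for Platr20 and -0.86 to 0.36 for Platr26. In AID-Zzz3 it gave -0.0545 to 0.0915 for Platr16, -0.33 to 0.0111 for Platr20 and -0.41 to 0.14 for Platr27. In 4sU against total RNA Platr10 ranged from -0.43 to 0.028. Leaving out a project in Tir1/BirA WT gave -0.35 to 0.12 for Platr22 and -0.0943 to 0.18 for Platr26, which was at -0.0376 without project 2. Over all values of single RNAs, 504 kept direction and side of the threshold, 37 passed it, 22 lost it and 48 turned.

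Over all genes AID-Tada3 had 0 called higher and 5 lower, 8 and 24 with DESeq2, 168 and 208 without a filter and 26 and 224 on spike-in scaling. On spike-in scaling 59 were higher and 3411 lower in AID-Yeats2, 32 and 646 in Supt7l-/-, 129 and 3584 in AID-Zzz3, and 11703 and 607 in 4sU against total RNA, against 569 and 482, 191 and 293, 99 and 44, and 4409 and 4776 on mouse genes. DESeq2 called 329 and 268 in AID-Yeats2 and 170 and 91 in AID-Zzz3, no filter gave 824 and 761, 552 and 693, and 436 and 321 in AID-Yeats2, Supt7l-/- and AID-Zzz3, and the joint fit gave 0 and 11 in AID-Tada3, 299 and 268 in AID-Yeats2, 34 and 63 in Supt7l-/- and 325 and 258 in AID-Zzz3. Leaving out a library gave 0 to 1040 higher in AID-Tada3, 133 to 1069 in AID-Yeats2, 12 to 1281 in Supt7l-/- and 12 to 288 in AID-Zzz3, so counts over all genes rest on few libraries. Platr26 and Platr27 had at most 127 counts in a 4sU library, so counting error bears most on them.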
